A study of Mus musculus with 18 samples.

Results

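The genes described here are 29 mouse genes of cholesterol synthesis, its SREBP control and cholesterol carriage and efflux, taken by exact match of the gene symbol. All 29 were found among the 25628 genes of the experiment 1 table and the 26903 genes of the experiment 2 table, and all 29 passed the filter on low counts in both. By role they were 7 enzymes of the mevalonate arm, 12 proteins of the squalene and sterol arm, 5 SREBP regulators, the sterol carrier Stard4, and 4 genes of efflux and liver X receptors. None of the 29 is a receptor for lipoprotein uptake.

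The cells were leukemic erythroid cells from the bone marrow of Spi1-transgenic mice, line #763, which overproduce the transcription factor SPI1 (PU.1) and were grown with EPO. All 18 libraries came from this line, which carries a doxycycline-inducible hairpin against Spi1. Experiment 1 compared cells without doxycycline (Exp1_NoDox) with cells given it for 48 h (Exp1_Dox). Experiment 2 crossed 48 h of doxycycline with 6 h of 3 µM entinostat, an inhibitor of class I histone deacetylases, or of its vehicle DMSO, so that its vehicle groups are NoDox_DMSO and Dox_DMSO and its drug groups NoDox_Entinostat and Dox_Entinostat. The labels call the 3 libraries of each of these 6 groups biological replicates. No group carried a control hairpin, so the drug doxycycline and the loss of Spi1 RNA cannot be told apart, and a result in 1 line holds for that line.

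Cells make cholesterol from acetyl-CoA through mevalonate, isoprenoid units, squalene and lanosterol. When membranes hold little sterol, SCAP escorts the SREBP factors from the endoplasmic reticulum to the Golgi, where they are cut and released to activate these enzymes, while INSIG proteins hold SCAP back when sterol is plentiful. The liver X receptors respond to oxysterols and raise the pumps that move cholesterol out of the cell. Red cell precursors need cholesterol for their membranes.

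The proximal promoters of 4 genes are shown because these genes stand for the groups that moved in opposite directions with entinostat: the mevalonate enzyme Hmgcs1, the sterol enzyme Lss and the SREBP brake Insig1 were lower, and the efflux pump Abca1 was higher. Each sequence is the 250 bases before a RefSeq transcript start on the GRCm38.p6 assembly, written on the strand of the gene. Capitals mark matches on either strand to the sterol regulatory element TCACNCCAC, the box known as CCAAT, the GC box spelled GGGCGG and the E-box spelled CACGTG. No 2 matches overlapped in these windows, which lie at chr13:119690101-119690350 (plus strand, Hmgcs1), chr10:76531355-76531604 (plus strand, Lss), chr5:28071162-28071411 (plus strand, Insig1) and chr4:53159896-53160145 (minus strand, Abca1).
Hmgcs1: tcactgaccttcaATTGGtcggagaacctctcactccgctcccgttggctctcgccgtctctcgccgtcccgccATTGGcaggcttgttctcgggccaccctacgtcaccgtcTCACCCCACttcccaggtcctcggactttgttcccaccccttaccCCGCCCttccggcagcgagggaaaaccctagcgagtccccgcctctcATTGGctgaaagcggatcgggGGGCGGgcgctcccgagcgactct
Lss: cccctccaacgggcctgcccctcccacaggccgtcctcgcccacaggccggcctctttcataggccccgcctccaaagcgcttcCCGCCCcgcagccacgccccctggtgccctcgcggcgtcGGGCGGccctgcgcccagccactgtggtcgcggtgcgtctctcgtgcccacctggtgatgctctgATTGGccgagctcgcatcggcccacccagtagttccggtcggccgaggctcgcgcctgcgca
Insig1: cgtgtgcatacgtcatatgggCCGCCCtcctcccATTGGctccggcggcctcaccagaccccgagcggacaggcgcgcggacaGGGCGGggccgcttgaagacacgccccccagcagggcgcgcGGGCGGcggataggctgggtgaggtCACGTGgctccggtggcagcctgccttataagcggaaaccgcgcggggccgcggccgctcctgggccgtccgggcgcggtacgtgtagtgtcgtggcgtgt
Abca1: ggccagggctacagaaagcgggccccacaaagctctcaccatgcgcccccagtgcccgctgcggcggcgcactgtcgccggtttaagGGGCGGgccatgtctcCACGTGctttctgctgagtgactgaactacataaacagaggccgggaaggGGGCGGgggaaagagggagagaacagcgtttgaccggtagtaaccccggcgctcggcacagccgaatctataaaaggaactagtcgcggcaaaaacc

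Promoters of 24 of the 29 genes were matched in the RefSeq table. Those of Sqle, Stard4, Abcg1, Fdps and Fdft1 were not matched and so were not searched. The CCAAT motif was found for 18 of the 24 (75%), against 37.5% of 27025 genes. The GC box was found for 21 (87.5%, against 35.4%) and the E-box for 6 (25%, against 6.86%). The sterol regulatory element, spelled as above, was found among these 24 for Hmgcs1 alone (4.17%, against 1.22% of the 27025 genes). These are counts of letters in 250 bases and not of bound sites. The 27025 genes are all those of the RefSeq table, whether or not these cells express them, whereas the 29 genes all passed the filter on low counts. Shares among the genes tested were not taken, so the differences cannot be read as particular to these genes. A gene with several transcript starts counts if any of its windows matched.

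Levels are in CPM, counts scaled to a common library size after TMM correction, and a log2 fold change is given ± its standard error. That error comes from 1 fit to all libraries of the experiment, with 3 libraries a group unless some were left out. The total count of a library ran from 82.7 to 113.8 M in experiment 1 and, in experiment 2, from 43.1 to 48.9 M. In experiment 2 the first Dox_DMSO and the first NoDox_Entinostat library stood apart: 9.79% and 10.5% of genes lay more than 2-fold from the mean of the other libraries of their group, against at most 2.49% in any other library. They also had less RNA from long genes. The median log2 difference from the NoDox_DMSO mean over the longest 25% of genes, minus that over the shortest 25%, was -0.29 in the first of them and -0.62 in the second. All 3 Dox_Entinostat libraries were shifted in the same way, at -0.62, -0.61 and -0.64, whereas the other Dox_DMSO and NoDox_Entinostat libraries lay between 0.10 and 0.23. This length shift moves with the Dox_Entinostat group, so for genes that follow it the shift and the treatment cannot be told apart. The counts of each comparison of experiment 2 among the 29 genes are therefore also given without these 2 libraries. Dox_DMSO and NoDox_Entinostat then hold fewer libraries than the other groups. Erythroid markers summed to 3770 CPM or more in every library. The highest was Tfrc, the transferrin receptor, at a mean of 2230 CPM or more, while Hba-a2 was at 0 in NoDox_DMSO and NoDox_Entinostat. Of 13 tested erythroid markers, 7 rose and 3 fell with entinostat without doxycycline, and 5 rose and 4 fell with doxycycline. Over all genes, 30.3% rose and 16.9% fell without doxycycline, and 33.9% and 29.9% with it. Summed markers of B cells, T and NK cells, neutrophils and stromal or endothelial cells reached at most 1.21, 1.70, 3.91 and 4.05 CPM.

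Spi1 RNA, the target of the hairpin, was lower with doxycycline in every setting (log2 fold change -1.73 ± 0.10 in experiment 1, -1.29 ± 0.33 in DMSO and -1.59 ± 0.33 in entinostat; edgeR adjusted p = 0.000828, 0.0264 and 0.00722).

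Per kilobase of exon, which allows levels of different genes to be compared, the NoDox_DMSO cells held most RNA of Hmgcs1, the HMG-CoA synthase (92.1 ± 8.83 CPM per kb, SD, n = 3), followed by Pmvk, the phosphomevalonate kinase (55.1 ± 4.79). Stard4, which carries sterol between membranes, and Idi1, the isopentenyl diphosphate isomerase, came next at 44.9 ± 1.23 and 44.5 ± 3.45 CPM per kb, and these neighbours overlapped. The lowest genes were Abca1 (0.744 ± 0.325) and the liver X receptor Nr1h3 (0.073 ± 0.0269 CPM per kb), while its relative Nr1h2 stood at 8.37 ± 0.32 CPM per kb. The RNA of the SREBP factors stood in the middle, with Srebf2 at 21 ± 3.01 and Srebf1 at 19.7 ± 2.69 CPM per kb, and these overlapped. Between NoDox_DMSO libraries the 29 genes varied by a median coefficient of variation of 6.8%, from 0.346% for Acat2 to 43.7% for Abca1.

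**Figure D1:**
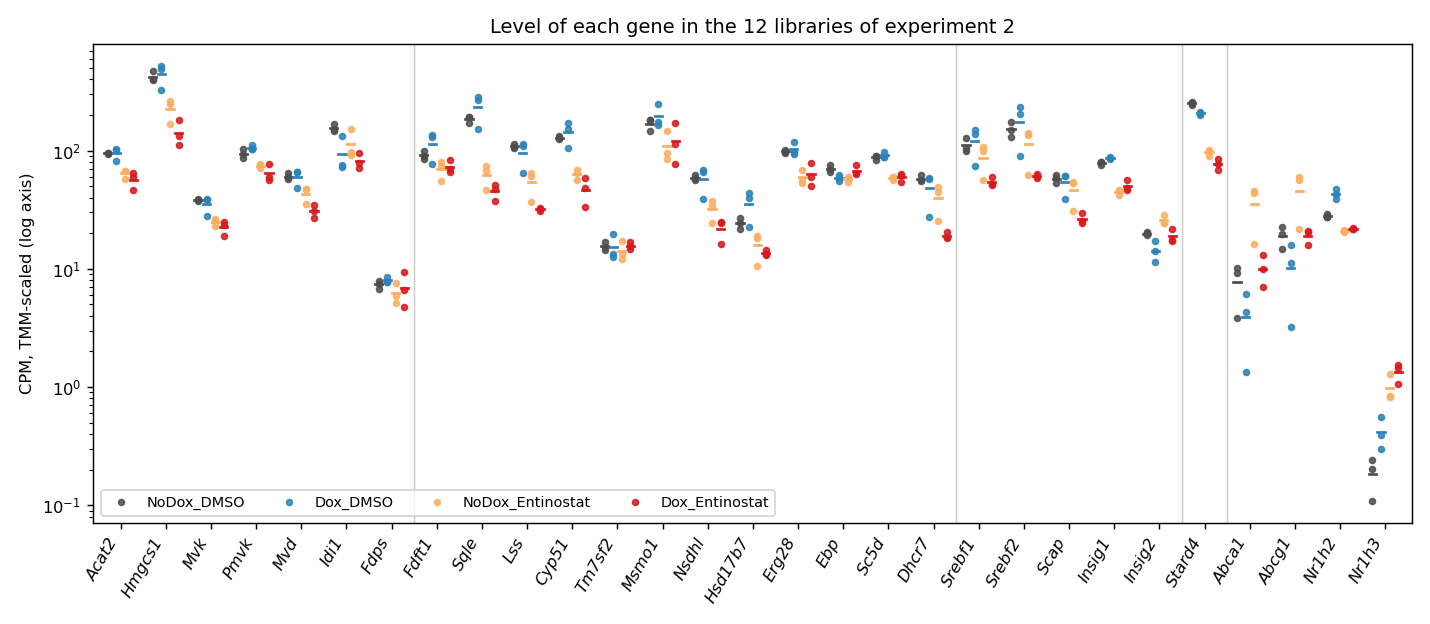
Level in CPM after TMM scaling (log axis) of the 29 genes in experiment 2, in pathway order, with grey lines between the roles. Points are the 12 libraries, coloured by group, and bars are group means; Hmgcs1 is among the highest and Nr1h3 the lowest in every group.

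Entinostat without doxycycline asked how these genes respond to histone deacetylase inhibition while SPI1 is high. Of the 29 genes, 13 fell (44.8%) and 3 rose, against a background over all 15051 genes tested of 16.9% falling and 30.3% rising. The falls were in the synthesis arms, with 4 of 7 mevalonate genes and 6 of 12 squalene and sterol genes, along with Insig1, Stard4 and Nr1h2. The 3 rises were the efflux pumps Abca1 and Abcg1 and the receptor Nr1h3. The median log2 fold change was -0.47 over the 29 genes and 0.07 over all genes. In bulk RNA, fewer cells that hold a transcript and less of it per cell cannot be told apart. The NoDox_Entinostat libraries lay wholly below the NoDox_DMSO libraries for 18 genes, against 26.4% of all genes, and wholly above for 3, against 33.8%.

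In the mevalonate arm, Hmgcs1 (ENSMUSG00000093930, mm10 chromosome 13, 119690379 to 119708260) stood at 396, 403 and 470 CPM in NoDox_DMSO and at 169, 246 and 260.1 CPM in NoDox_Entinostat. The groups did not overlap, and the first entinostat library was the lowest; the log2 fold change was -0.91 ± 0.25 (adjusted p = 0.00869). The other falls of this arm were smaller, at -0.61 ± 0.16 for the mevalonate kinase Mvk, -0.56 ± 0.16 for the acetoacetyl-CoA thiolase Acat2 and -0.47 ± 0.18 for the decarboxylase Mvd (adjusted p = 0.00811, 0.0123 and 0.0417). Idi1 stood at 153, 146 and 169 CPM in DMSO and at 152, 92.2 and 96.7 CPM in entinostat. Its first entinostat library lay among the DMSO libraries and the test did not pass (-0.46 ± 0.25, adjusted p = 0.16). Pmvk and the farnesyl diphosphate synthase Fdps also missed the threshold, at -0.35 ± 0.15 and -0.25 ± 0.24 (adjusted p = 0.0791 and 0.41).

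In the squalene and sterol arm the largest fall was that of Sqle (ENSMUSG00000022351, mm10 chromosome 15, 59315077 to 59331192), the squalene epoxidase that commits squalene to sterols. Sqle stood at 171, 192 and 193 CPM in NoDox_DMSO and at 46.0, 66.6 and 74.7 CPM in NoDox_Entinostat. All 3 entinostat libraries lay far below every DMSO library, a log2 fold change of -1.57 ± 0.25 (adjusted p = 0.000261). Cyp51, the lanosterol demethylase, went from 125, 127 and 133 CPM to 56.1, 64.3 and 69.1 CPM, with no overlap (-1.02 ± 0.22, adjusted p = 0.00217). Lss, the lanosterol synthase, went from 106, 115 and 108 CPM to 36.6, 64.0 and 61.4 CPM, again with no overlap (-1.02 ± 0.24, adjusted p = 0.00329). Nsdhl, a sterol dehydrogenase, went from 58.3, 61.9 and 56.4 CPM to 24.5, 37.2 and 34.0 CPM (-0.88 ± 0.24, adjusted p = 0.00828). The first entinostat library was again the lowest of its group for Cyp51, Lss and Nsdhl. Erg28, a scaffold of the sterol enzymes, and the desaturase Sc5d fell by 0.73 ± 0.18 and 0.59 ± 0.13 on the log2 scale. The other 6 genes of this arm had values between -0.63 ± 0.29 for the methyl oxidase Msmo1 and -0.13 ± 0.20 for the reductase Tm7sf2 and did not pass.

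Among the regulators only Insig1 passed the test. Insig1 (ENSMUSG00000045294, mm10 chromosome 5, 28071363 to 28078662) stood at 79.3, 79.6 and 75.2 CPM in NoDox_DMSO and at 42.1, 45.3 and 46.5 CPM in NoDox_Entinostat, a log2 fold change of -0.81 ± 0.13 (adjusted p = 0.000322). Srebf2, the SREBP mainly tied to cholesterol genes, stood at 131, 174 and 149 CPM in DMSO and at 62.1, 135 and 142 CPM in entinostat. The second and the third entinostat libraries of Srebf2 lay within the DMSO range and the first lay below it; the value did not pass (-0.42 ± 0.34, adjusted p = 0.338). Srebf1, tied more to fatty acid genes, stood at 105, 128 and 99.4 CPM and at 56.0, 99.0 and 106 CPM. The third entinostat library of Srebf1 lay within the DMSO range, the second just below it and the first well below it (-0.35 ± 0.27, adjusted p = 0.325). Insig2 stood higher at 0.38 ± 0.17 and Scap lower at -0.33 ± 0.23, and neither passed (adjusted p = 0.0819 and 0.264).

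Stard4 (ENSMUSG00000024378) had the smallest adjusted p of the 29 genes in this comparison. It stood at 243, 253 and 257 CPM in NoDox_DMSO and at 89.7, 97.9 and 102 CPM in NoDox_Entinostat. The groups lay far apart and the first entinostat library was close to its group, a log2 fold change of -1.38 ± 0.15 (adjusted p = 1.33e-05).

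The efflux genes went the other way. Abca1 (ENSMUSG00000015243, mm10 chromosome 4, 53030787 to 53159895), which loads cholesterol onto apolipoproteins, stood at 3.87, 9.12 and 10.2 CPM in NoDox_DMSO and at 16.1, 45.4 and 43.8 CPM in NoDox_Entinostat. The groups did not overlap, and the first library of each was the lowest (2.19 ± 0.53, adjusted p = 0.00416). Abcg1, which passes cholesterol to lipoprotein particles, stood at 14.7, 19.7 and 22.5 CPM and at 21.8, 56.1 and 59.2 CPM, so that the first entinostat library lay within the DMSO range (1.27 ± 0.46, adjusted p = 0.0381). The Abcg1 call was lost on leaving out any 1 of 8 libraries, all 3 NoDox_DMSO libraries, the second or the third NoDox_Entinostat library or any Dox_Entinostat library (adjusted p from 0.0511 to 0.127), and with limma-voom (0.0569). Nr1h3, the receptor LXR alpha, stood at 0.202, 0.109 and 0.240 CPM and at 0.840, 0.822 and 1.28 CPM, a rise from a very low level (2.40 ± 0.39, adjusted p = 0.000289). Nr1h2, the receptor LXR beta, fell from 27.6, 29.3 and 27.3 CPM to 20.5, 20.9 and 21.4 CPM (-0.42 ± 0.13, adjusted p = 0.0159). Macrophage markers, whose cells are known for Abca1 and Nr1h3, summed to 3.93 to 4.30 CPM in NoDox_DMSO and to 15.9 to 19.2 CPM in NoDox_Entinostat over 9 genes, with Itgam and Mpeg1 at 0 in the former and none at 0 in the latter; their part in these rises was not tested. Mast cell and basophil markers summed to 7.09 to 15.5 CPM and to 43.9 to 138 CPM, with Mcpt8 at 0 in the latter, and megakaryocyte and platelet markers to 32.1 to 68.7 CPM and to 84.9 to 126 CPM, and their part was not tested either.

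Without the first Dox_DMSO and first NoDox_Entinostat libraries, 20 of the 29 genes fell and 3 rose, against 27.7% and 36.2% of genes. Hmgcs1 (-0.75), Sqle (-1.40), Lss (-0.81), Insig1 (-0.77) and Stard4 (-1.33) were then still called, and Srebf2 (-0.13, adjusted p = 0.37) and Srebf1 (-0.11, adjusted p = 0.418) were still not. With library size alone as the scaling, the median of all genes stood at 0.32, and 1233 of 15051 genes fell and 5417 rose. Under it 6 of the 29 genes fell: Sqle, Lss, Cyp51, Erg28, Insig1 and Stard4. The call of Mvd was lost on leaving out any NoDox_DMSO library, the first or the third NoDox_Entinostat library or the third Dox_Entinostat library (adjusted p from 0.0505 to 0.121) and that of Nr1h2 without the second NoDox_DMSO library (0.0653); both were also lost with no filter on low counts and once a trend over exon length and GC content was removed (adjusted p = 0.284 for Mvd and 0.493 for Nr1h2), and Mvd when only genes above 1 CPM in 3 or more libraries were kept (0.0604). Replicate numbers paired these groups by the limit used, and a fit blocked on the number had 19 falls and 4 rises among the 29 genes, against 22.5% and 32.7% of all genes; it kept the 16 calls and added falls of Pmvk, Idi1 (-0.51, adjusted p = 0.0293), Fdft1, Msmo1, Hsd17b7 (-0.65, adjusted p = 0.00825) and Dhcr7 and a rise of Insig2 (0.37, adjusted p = 0.029).

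**Figure D2:**
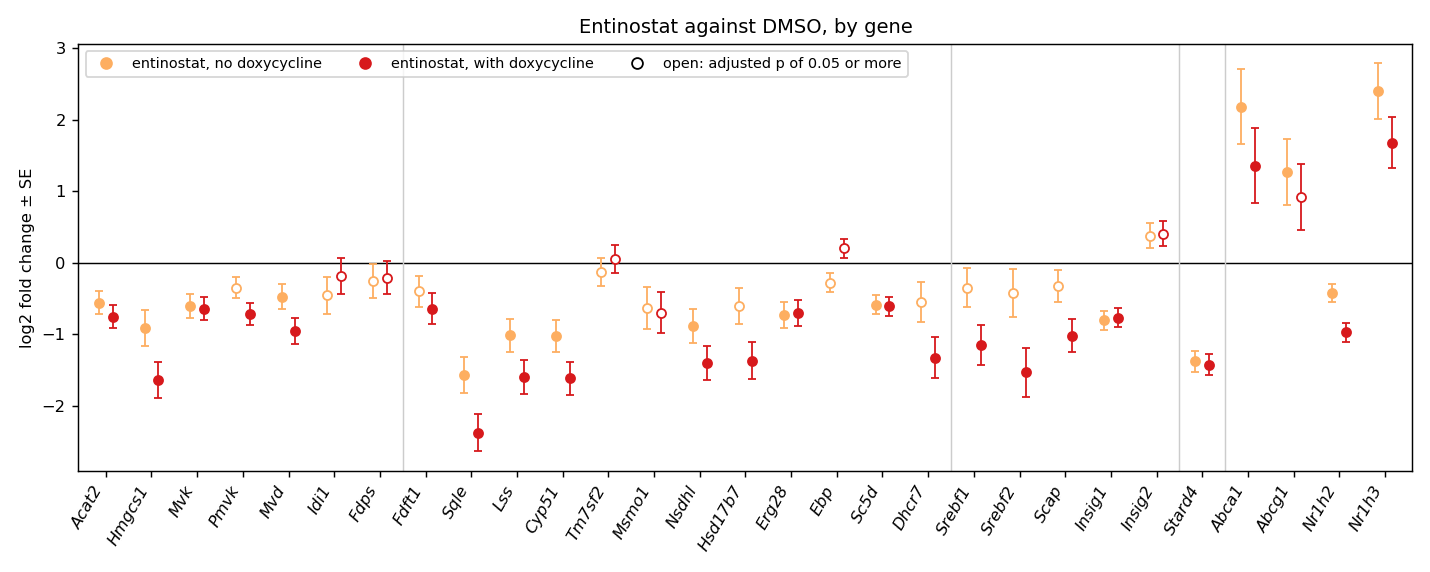
Log2 fold change of entinostat against DMSO for the 29 genes, in pathway order, without doxycycline (orange) and with it (red). Points are edgeR estimates from 3 libraries a group, bars are ± SE, and open points did not pass an adjusted p of 0.05; most synthesis genes lie below 0 in both, and Abca1, Abcg1 and Nr1h3 above it.

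Entinostat with doxycycline asked the same question after Spi1 RNA had been lowered. Of the 29 genes, 20 fell (69%) and 2 rose, against 29.9% and 33.9% of all genes. All 13 genes that fell without doxycycline fell here too, and Abca1 and Nr1h3 rose in both. The 7 further falls were those of Pmvk, Fdft1, Hsd17b7, Dhcr7, Srebf1, Srebf2 and Scap. The median log2 fold change was -0.75 over the 29 genes and 0.14 over all genes. Groups lay wholly lower for 19 genes (30.5% of all genes) and wholly higher for 4 (35.4%). Idi1, Fdps, Tm7sf2, Msmo1, Ebp and Insig2 passed in neither entinostat comparison.

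Sqle again had the largest fall, from 153, 267 and 286 CPM in Dox_DMSO to 47.2, 37.1 and 51.2 CPM in Dox_Entinostat (-2.38 ± 0.26, adjusted p = 1.21e-05). Hmgcs1 went from 323, 489 and 522 CPM to 181, 111 and 133 CPM (-1.65 ± 0.25, adjusted p = 0.000145). Cyp51 went from 105, 154 and 172 CPM to 58.3, 33.5 and 48.0 CPM (-1.62 ± 0.23, adjusted p = 7.24e-05). For these 3 genes every entinostat library lay below every DMSO library. Lss went from 64.9, 110.2 and 114 CPM to 30.7, 32.5 and 32.1 CPM (-1.60 ± 0.24, adjusted p = 0.000123), with the first Dox_DMSO library well under its group. Stard4 went from 201, 207 and 211 CPM to 84.6, 68.8 and 76.7 CPM (-1.43 ± 0.15, adjusted p = 8.16e-06). Insig1 went from 87.9, 86.4 and 84.3 CPM to 46.7, 48.4 and 56.5 CPM (-0.77 ± 0.13, adjusted p = 0.000322).

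Nr1h3 rose from 0.393, 0.562 and 0.302 CPM to 1.05, 1.55 and 1.45 CPM (1.68 ± 0.36, adjusted p = 0.00131). Abca1 went from 1.35, 4.30 and 6.07 CPM to 7.03, 13.2 and 9.95 CPM (1.36 ± 0.52, adjusted p = 0.0367). Its groups did not overlap, but the call was lost without the first or second Dox_DMSO library (adjusted p = 0.0802 and 0.0696) and without the second or the third Dox_Entinostat library (0.134 and 0.0701). Abcg1 stood at 3.24, 11.2 and 15.9 CPM and at 15.8, 20.6 and 20.8 CPM, where the lowest entinostat library overlapped the highest DMSO library (0.92 ± 0.46, adjusted p = 0.1).

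Srebf1, Srebf2 and Scap, the SREBP factors and their escort, passed here and not without doxycycline, while the test of that difference, the interaction, did not pass. Srebf2 stood at 90.5, 205 and 232 CPM in Dox_DMSO and at 61.0, 58.3 and 62.9 CPM in Dox_Entinostat (-1.53 ± 0.34, adjusted p = 0.00191). The Dox_Entinostat range held the first NoDox_Entinostat library, at 62.1 CPM, which had no doxycycline. Srebf1 stood at 74.2, 138 and 149 CPM and at 52.3, 59.4 and 51.2 CPM (-1.15 ± 0.28, adjusted p = 0.00298). Scap stood at 39.0, 61.2 and 61.1 CPM and at 25.5, 29.7 and 24.4 CPM (-1.02 ± 0.23, adjusted p = 0.00201). For Srebf1, Srebf2 and Scap the first Dox_DMSO library was the lowest of its group, which is the library with the length shift.

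Without the first Dox_DMSO and first NoDox_Entinostat libraries, 20 genes fell and 4 rose with entinostat in the presence of doxycycline, against 34.7% and 43.1% of genes. Sqle stood at -2.62 ± 0.13, Srebf2 at -1.85 ± 0.12, Hmgcs1 at -1.84 ± 0.17, Lss at -1.82 ± 0.09, Cyp51 at -1.81 ± 0.17, Srebf1 at -1.41 ± 0.12 and Scap at -1.21 ± 0.11. Stard4 (-1.46 ± 0.11) and Insig1 (-0.76 ± 0.10) stood close to their values from all libraries. The rises were those of Nr1h3 (1.63 ± 0.40), Abca1 (0.94 ± 0.33, adjusted p = 0.0192), Insig2 (0.55 ± 0.13, adjusted p = 0.00182) and Abcg1, whose value was smaller than with all libraries and now passed (0.49 ± 0.19, adjusted p = 0.0283).

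After removal of a trend over exon length and GC content, an alternative chosen after seeing the data, 15 genes fell and 4 rose with entinostat in the presence of doxycycline, against 26.3% and 38.3% of genes. Scap (-0.05 ± 0.10, adjusted p = 0.713), Srebf1 (-0.25 ± 0.12, adjusted p = 0.0796), Nr1h2 (-0.29, adjusted p = 0.0673), Mvk (-0.31, adjusted p = 0.0512) and Fdft1 (-0.20, adjusted p = 0.254) no longer passed. Srebf2 stood at -0.55 ± 0.16 (adjusted p = 0.00841). Sqle (-1.94 ± 0.17), Hmgcs1 (-1.57 ± 0.23), Cyp51 (-1.40 ± 0.18) and Stard4 (-1.21 ± 0.10) and Insig1 (-0.68 ± 0.11) still passed, and Insig2 (0.49, adjusted p = 0.00452) and Abcg1 (1.68, adjusted p = 0.000771) were added as rises. The call of Fdft1 was also lost on leaving out the second or the third Dox_DMSO library or the first or second Dox_Entinostat library (adjusted p from 0.0509 to 0.0811), with library size alone (0.0764) and with only the groups compared (0.086), where that of Mvk was lost too (0.0521).

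**Figure D3:**
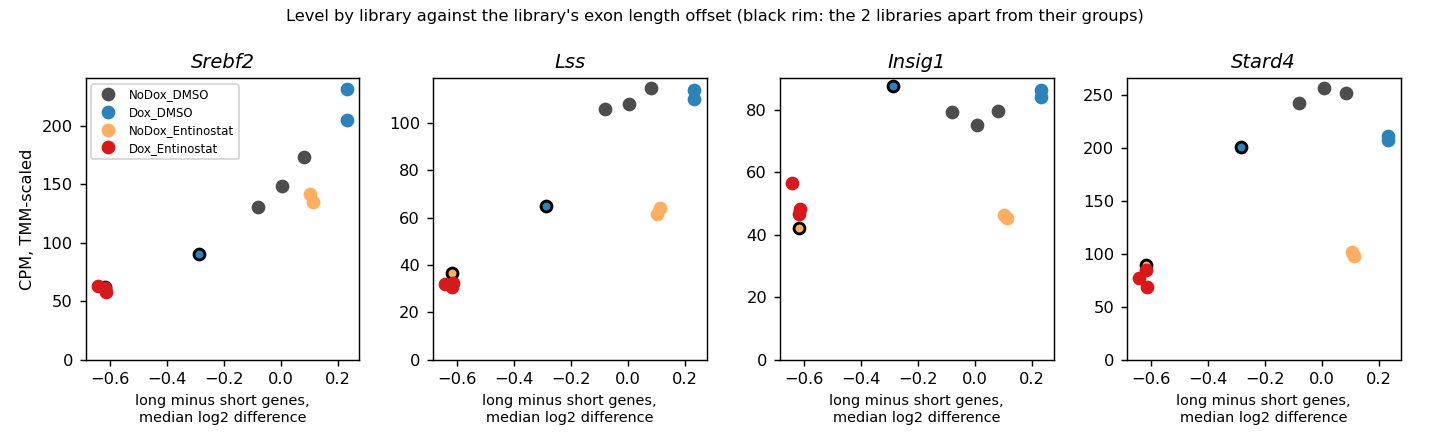
Level in CPM of Srebf2, Lss, Insig1 and Stard4 in the 12 libraries of experiment 2 against the length shift of the library, which is the median log2 difference from the NoDox_DMSO mean of the longest 25% of genes minus that of the shortest 25%. Colours are groups and black rims mark the 2 libraries that stood apart; Srebf2 is at 62.9 CPM or less in the 4 libraries with the strongest shift, while Insig1 and Stard4 are low in all 6 entinostat libraries whatever their shift.

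In experiment 1, which asked what lowering Spi1 for 48 h does, few of these genes passed. Idi1, Lss and Stard4 fell and 0 genes rose, so that 10.3% fell against 8.36% of 13811 genes tested, and the background of rises was 5.26%. With edgeR 2 genes had a positive value at an unadjusted p under 0.05, and DESeq2 called 2 and limma-voom 1 as higher. The median log2 fold change was -0.10 over the 29 genes and 0.02 over all genes.

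Idi1 (ENSMUSG00000058258, mm10 chromosome 13, 8885501 to 8892451) had 59.1, 74.8 and 65.7 CPM in Exp1_NoDox and 26.4, 40.6 and 32.0 CPM in Exp1_Dox. The groups did not overlap and the log2 fold change was -1.01 ± 0.18 (adjusted p = 0.0148). Of its exon bases, 9.22% are shared with Gm48574 on the other strand, and the library kit kept no strand. Lss went from 110.1, 112 and 105 CPM to 82.8, 85.2 and 81.3 CPM (-0.39 ± 0.07, adjusted p = 0.014). Stard4 went from 271, 278 and 275 CPM to 193, 232 and 199 CPM (-0.40 ± 0.09, adjusted p = 0.0313). Each of the 3 calls was lost on leaving out some libraries: Idi1 without the third library of either group (adjusted p = 0.0679 and 0.0686), Lss without the second or the third of either group (0.0528 to 0.0743), and Stard4 without any Exp1_NoDox library or the first or the third Exp1_Dox library (0.0705 to 0.136). Lss and Stard4 were also lost with no filter on low counts (0.0641 and 0.138), and Lss with the length and GC trend removed (0.242).

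The other genes of the fixed set did not pass. Sqle stood at 246, 278 and 253 CPM and at 269, 301 and 292 CPM (0.15 ± 0.08, adjusted p = 0.326), and Insig1 at 88.9, 112 and 96.8 CPM and at 88.6, 109.5 and 103 CPM (0.02 ± 0.12, adjusted p = 0.965). Hmgcs1 stood at 441, 456 and 448 CPM and at 379.7, 388 and 376 CPM, with no overlap but no call (-0.23 ± 0.06, adjusted p = 0.0606). Srebf2 stood at 221, 199 and 206 CPM and at 211, 186 and 188 CPM, and Srebf1 at 119, 99.2 and 107 CPM and at 116, 89.9 and 100 CPM; the groups of both overlapped, though each value was lower with doxycycline at every replicate number. Abca1 stood at 8.57, 2.32 and 5.85 CPM and at 4.39, 1.55 and 1.79 CPM, and Abcg1 at 17.7, 8.58 and 12.2 CPM and at 9.20, 4.16 and 5.92 CPM. Both pumps were lower with doxycycline at each replicate number, and neither passed without a block on that number (-1.11 ± 0.58 and -0.996 ± 0.367, adjusted p = 0.304 and 0.145). Summed macrophage markers stood at 3.04 to 4.14 CPM in Exp1_NoDox and at 1.37 to 1.6 CPM in Exp1_Dox over 8 genes, with Itgam and Ctss at 0 in the latter, and Cd68 (-1.36 ± 0.16) and Cd14 (-2.15 ± 0.34) fell. Summed erythroid markers stood at 3930 to 4940 CPM and at 5940 to 7420 CPM. The part of either in the values of the pumps was not tested.

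Libraries of experiment 1 with the same number deviated together, and a fit blocked on that number had 13 falls and 6 rises among the 29 genes, against 24.7% and 26.1% of all genes. Beside Idi1, Lss and Stard4, the blocked falls were Abcg1 (-1.01 ± 0.06, adjusted p = 1.61e-06), Abca1 (-1.10 ± 0.17, adjusted p = 0.000604), Hmgcs1 (-0.23 ± 0.03, adjusted p = 0.000262), Dhcr7 (-0.40 ± 0.04), Insig2 (-0.46 ± 0.05), Scap (-0.26, adjusted p = 0.000387), Ebp (-0.24, adjusted p = 0.00168), Tm7sf2 (-0.24, adjusted p = 0.02), Mvk (-0.19, adjusted p = 0.00554) and Srebf2 (-0.10, adjusted p = 0.0288). The blocked rises were Hsd17b7 (0.36 ± 0.05), Nr1h2 (0.31 ± 0.06), Pmvk (0.29 ± 0.04), Erg28, Sqle and Fdft1, the last 3 at 0.16 or less.

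**Figure D4:**
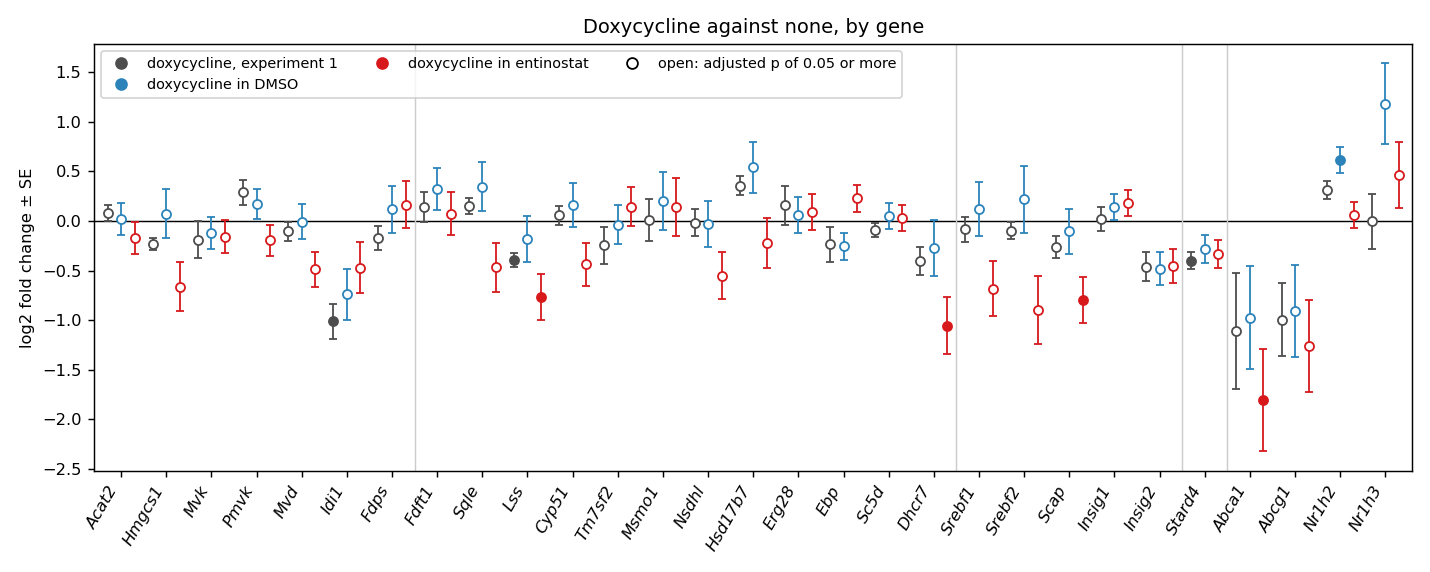
Log2 fold change of doxycycline against none for the 29 genes in experiment 1 (grey), in DMSO (blue) and in entinostat (red), from fits without a replicate block. Points are edgeR estimates from 3 libraries a group, bars are ± SE, and open points did not pass an adjusted p of 0.05; Idi1, Abca1 and Abcg1 lie below 0 in all 3 settings.

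In DMSO of experiment 2, doxycycline raised Nr1h2 and lowered 0 of the 29 genes, against 3.77% rising and 5.53% falling over all genes. At an unadjusted p under 0.05 with edgeR, 2 genes had negative values, and DESeq2 and limma-voom each called 0 as lower. Nr1h2 went from 27.6, 29.3 and 27.3 CPM to 42.5, 38.9 and 47.4 CPM, with no overlap (0.61 ± 0.13, adjusted p = 0.00815). This call was lost without the first or the third NoDox_DMSO library or the third Dox_DMSO library (adjusted p from 0.0551 to 0.057), and with no filter on low counts (0.0909). Idi1 stood at 132, 75.2 and 72.4 CPM in Dox_DMSO, below each NoDox_DMSO library (-0.74 ± 0.26, adjusted p = 0.101), and Stard4 at 201, 207 and 211 CPM (-0.28 ± 0.14, adjusted p = 0.309). Abca1 and Abcg1 had values of -0.98 ± 0.52 and -0.91 ± 0.46 that did not pass. A fit blocked on the replicate number called Abca1 (-1.05, edgeR adjusted p = 0.00906), Abcg1 (-1.09, 0.0224), Idi1 (-0.80, 0.00961) and Insig2 (-0.50, 0.0261) as lower. Falls over all genes were then 1146 of 15051, and not every same-numbered pair here passed the limit used.

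Without the first Dox_DMSO and first NoDox_Entinostat libraries, 6 genes rose and 2 fell in DMSO, against 17.4% and 13.9% of genes. Those that rose were Hsd17b7 (0.78 ± 0.11), Nr1h2 (0.62 ± 0.10), Sqle (0.58 ± 0.13), Fdft1 (0.54 ± 0.11), Srebf2 (0.53 ± 0.12) and Srebf1 (0.37 ± 0.12). Those that fell were Idi1 (-1.08 ± 0.13, adjusted p = 2.81e-05) and Insig2 (-0.63 ± 0.13, adjusted p = 0.0026).

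In entinostat, doxycycline lowered Abca1, Dhcr7, Scap and Lss (13.8% of the 29 genes) and raised 0, against 15.1% and 8.96% of all genes. By edgeR 0 had a positive value at an unadjusted p under 0.05, and DESeq2 and limma-voom called 0 as higher. Abca1 went from 16.1, 45.4 and 43.8 CPM to 7.03, 13.2 and 9.95 CPM, with no overlap (-1.81 ± 0.52, adjusted p = 0.0279). Summed macrophage markers stood at 15.9 to 19.2 CPM in NoDox_Entinostat and at 4.30 to 5.73 CPM in Dox_Entinostat, with Itgam at 0 in the latter, and their part in the fall of Abca1 was not tested. Dhcr7, the reductase of the last step of synthesis, went from 25.2, 48.9 and 44.9 CPM to 20.4, 18.2 and 18.6 CPM (-1.06 ± 0.28, adjusted p = 0.0222). Scap went from 30.8, 54.1 and 53.4 CPM to 25.5, 29.7 and 24.4 CPM (-0.80 ± 0.23, adjusted p = 0.0281). For Lss the first NoDox_Entinostat library, at 36.6 CPM, stood close to the highest Dox_Entinostat library, at 32.5 CPM (-0.77 ± 0.24, adjusted p = 0.035).

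All 4 calls were lost without the second or the third NoDox_Entinostat library (adjusted p from 0.09 to 0.145) and without the second or the third Dox_Entinostat library (0.0593 to 0.103). Without the first Dox_Entinostat library Lss, Scap and Abca1 were lost (0.0667 to 0.0834), and without the third NoDox_DMSO library Lss was lost (0.0506). Leaving out the first Dox_DMSO and NoDox_Entinostat libraries together gave 15 falls and 1 rise among the 29 genes, against 35.7% and 26.1% of genes, with Srebf2 at -1.19 ± 0.12, Srebf1 at -0.92 ± 0.12 and Hmgcs1 at -0.84 ± 0.17. With the length and GC trend removed, Scap no longer passed (-0.20 ± 0.10, adjusted p = 0.145), and Dhcr7 (-0.62 ± 0.16), Lss (-0.31 ± 0.10) and Abca1 (-1.35 ± 0.38) did. Falls of Idi1 (-0.56, adjusted p = 0.0187), Mvd (-0.51, adjusted p = 0.0485) and Insig2 (-0.43, adjusted p = 0.0233) were added, so that 6 fell and 0 rose, against 15.6% and 12.7% of genes. Leaving out only the first NoDox_Entinostat or only the first Dox_DMSO library gave 11 falls each. Over all genes, 4431 of 15517 and 3436 of 15614 then fell.

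The interaction asks whether doxycycline acted differently in entinostat and in DMSO, with a negative value where it lowered a gene more in entinostat. It passed for 0 of the 29 genes, against 0.166% of genes above 0 and 0.106% below. At an unadjusted p under 0.05 with edgeR, 1 gene had a positive and 3 a negative value, and DESeq2 and limma-voom called 0. Of the 29 values 22 were negative, with a median of -0.37, against -0.09 over all genes. The values of largest size were those of Srebf2 (-1.12 ± 0.48, adjusted p = 0.314), Abca1 (-0.83 ± 0.72, adjusted p = 0.507) and Sqle (-0.81 ± 0.35, adjusted p = 0.314). The smallest adjusted p was that of Nr1h2 (-0.55 ± 0.18, adjusted p = 0.306). For Insig1 (0.03 ± 0.19) and Stard4 (-0.05 ± 0.20) the estimates lay within their standard error of 0. These values do not show that the response to entinostat was alike with and without doxycycline.

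Without the first Dox_DMSO and first NoDox_Entinostat libraries, 15 genes passed below 0 and 3 above, against 30% and 21.5% of genes. Srebf2 then stood at -1.73 ± 0.17 (adjusted p = 3.65e-06), Dhcr7 at -1.31 ± 0.14, Srebf1 at -1.30 ± 0.17, Sqle at -1.23 ± 0.19 and Lss at -1.02 ± 0.13. Idi1 (0.87 ± 0.18), Tm7sf2 (0.57 ± 0.17) and Ebp (0.50 ± 0.15) were the 3 above 0. In that subset the 3 Dox_Entinostat libraries are those with a strong length shift, so the interaction and the shift cannot be told apart. With the length and GC trend removed and all 12 libraries kept, 0 genes passed and Srebf2 stood at -0.34 ± 0.22 (adjusted p = 0.422), Lss at -0.01 ± 0.13 (adjusted p = 0.974) and Sqle at -0.49 ± 0.23 (adjusted p = 0.323).

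**Figure D5:**
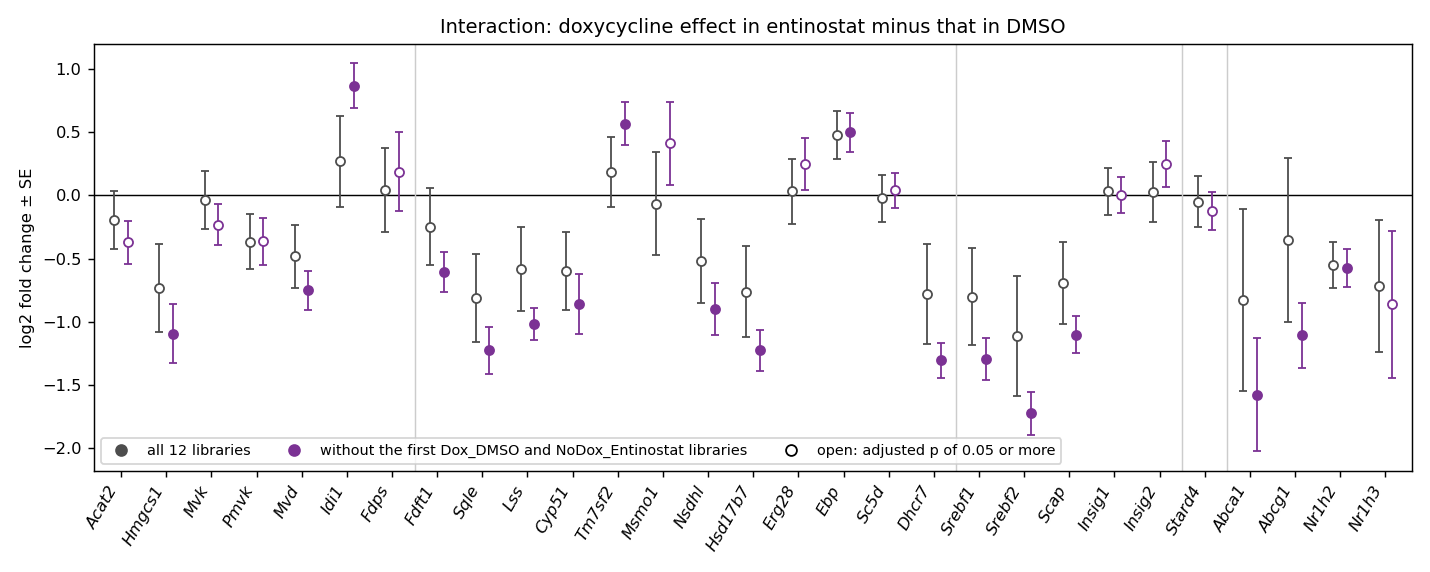
Interaction on the log2 scale (the effect of doxycycline in entinostat less its effect in DMSO) for the 29 genes with all 12 libraries (grey) or leaving out the first Dox_DMSO and the first NoDox_Entinostat library (purple). Points are edgeR estimates, bars are ± SE, and open points did not pass an adjusted p of 0.05; no gene passed with all 12 libraries and 18 passed without the 2.

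Genes next to the pathway were followed from lists taken from general knowledge. Results for these lists are not given without the 2 libraries that stood apart or with the trend removed. Where Dox_Entinostat is compared, the length shift and the treatment cannot be told apart for list genes that follow the shift. Of 13 tested fatty acid synthesis genes known as SREBP targets, 10 fell and 0 rose with entinostat in the presence of doxycycline, against 29.9% and 33.9% of all genes, among them the elongase Elovl6 (-1.52 ± 0.20), the acyl-CoA synthetase Acsl3 (-1.25 ± 0.18) and the citrate lyase Acly (-2.17 ± 0.37), and the list median was -1.40, against 0.14 over all genes. Without doxycycline 4 fell and 1 rose, against 16.9% and 30.3% of all genes, with Elovl6 at -0.87 ± 0.19 and the fatty acid synthase Fasn at -1.54 ± 0.48. In experiment 1 the desaturases Fads2 (0.74 ± 0.09) and Fads1 (0.53 ± 0.08) rose and 2 genes fell, against 5.26% and 8.36% of all genes.

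Of 7 tested genes of SREBP processing and sterol regulation, 4 fell with entinostat without doxycycline and 6 with it, against 16.9% and 29.9% of all genes, and 0 rose in either, against 30.3% and 33.9%. Erlin2, a membrane protein of the endoplasmic reticulum, fell by 0.87 ± 0.15 and 1.19 ± 0.15 on the log2 scale. The counts also include Ubxn8, which is not an established sterol regulator and fell by 1.08 ± 0.18 and 1.46 ± 0.19. Erlin1, the partner of Erlin2, was lower with doxycycline in experiment 1 (-0.51 ± 0.07), in DMSO (-0.61 ± 0.17) and in entinostat (-0.89 ± 0.17), and passed in all 3.

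Of 15 tested genes of sterol transport, storage and esterification in experiment 2, 5 rose and 2 fell with entinostat without doxycycline, close to the 30.3% and 16.9% of all genes. Soat1, which esterifies cholesterol for storage, went from a mean of 0.169 ± 0.044 CPM to 9.90 ± 3.51 CPM (adjusted p = 2.01e-06). Lipa, the lysosomal lipase that frees cholesterol from its esters, rose with entinostat (1.37 ± 0.21) and fell with doxycycline in experiment 1 (-1.19 ± 0.15), in DMSO (-1.44 ± 0.21) and in entinostat (-1.60 ± 0.21). Of 10 tested liver X receptor targets and partners, 4 rose and 1 fell with entinostat without doxycycline, and 1 rose and 5 fell with doxycycline. Over all genes, 30.3% rose and 16.9% fell without doxycycline, and 33.9% and 29.9% with it. The sterol pump Abcg4 and the receptor partner Rxra were the 2 of these 10 that rose with doxycycline in DMSO (2.77 ± 0.31 and 2.16 ± 0.37), against 3.77% of all genes. Abcg4 had a negative interaction that passed (-2.39 ± 0.42, adjusted p = 0.0384).

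The non-sterol isoprenoid branch, which draws on the same mevalonate, was mixed. Of its 14 tested genes 3 fell and 1 rose with entinostat without doxycycline, and 7 fell and 2 rose with it. Over all genes, 16.9% fell and 30.3% rose without doxycycline, and 29.9% and 33.9% with it. Nus1, a subunit of the enzyme that builds dolichol chains, fell in both (-0.79 ± 0.20 and -1.38 ± 0.21), as did the dolichol kinase Dolk (-0.92 ± 0.15 and -0.97 ± 0.15). In experiment 1 Ggps1, which makes geranylgeranyl diphosphate, was the 1 gene that fell (-0.64 ± 0.09, adjusted p = 0.00701). Of the 2 tested genes listed for oxysterol and bile acid hydroxylation and related steps, 1 rose with entinostat without doxycycline and 2 with it. Over all genes 30.3% and 33.9% rose. Ephx2, which encodes an epoxide hydrolase and not a hydroxylase, rose in both settings (2.52 ± 0.41 and 3.16 ± 0.39). Hsd3b7 rose with doxycycline present, from a mean of 0.371 to 0.747 CPM (1.01 ± 0.37, edgeR adjusted p = 0.0301).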

How the data were processed

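The authors' deposited tables hold raw counts per gene and were made separately for the 2 experiments. The submitters' processing notes name the genome mm10 and the tools STAR, DESeq2 and bcl2fastq (2.17.1.14); the counter and annotation are not given in the sources used here. Per the labels' protocols, polyadenylated RNA went into a kit that keeps no strand, so genes overlapping on opposite strands cannot be told apart: Fdft1 shares 18.3% of its exon bases with Ctsb, Scap 13.2% with 5830462I19Rik, Hmgcs1 12.1% with Gm48342 and Idi1 9.22% with Gm48574, while on the same strand Fdps shares 26.7% with Gm43738 and Tm7sf2 12.1% with Vps51. The experiment 1 table holds no value under 1, with 3543 genes at 1 in every library.

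The 2 tables were fitted apart, in R 4.3.3 with edgeR 4.0.16 (quasi-likelihood test on group means, TMM factors, filterByExpr), with two-sided tests and Benjamini-Hochberg adjustment over the 13811 or 15051 genes tested and a threshold of 0.05. On simulated data with the same group sizes, 96.5% of 200 genes changed 4-fold were recovered in experiment 1, with 13 false calls among 13811 genes. In the DMSO comparison 94% were recovered, with 9 false calls among 15051. The simulation gave every gene the common dispersion and every library the same proportions, apart from the changed genes. It held no length shift, outlying library, replicate pairing or change under 4-fold, so these rates do not carry over to such cases. No molecular identifiers were used as far as the labels say, so reads are not independent molecules and precision rests on the spread between libraries. Exon length is the union of annotated exons in GENCODE for mm10, and promoters are those of RefSeq on GRCm38.p6.

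The 29 genes, the 6 pathway lists, the 8 marker lists and the alternatives were chosen with earlier results of these data known. All 29 genes are accounted for; values in every library are given for 9 fixed genes where they are discussed and for up to 6 called genes with the largest change in each direction of a comparison, and each list adds up to 3 called genes, taken by smallest adjusted p. A gene left out of the list of SREBP processing and sterol regulation is not reported here.

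Whether replicate numbers pair libraries was checked by correlating their deviations from group means. In experiment 1 same-numbered libraries correlated at 0.502 to 0.95 and others at up to 0.579, and between NoDox_DMSO and NoDox_Entinostat at 0.114 to 0.667 and others at up to 0.535. Both pass the limit of 0.1 for every pair, although libraries of other numbers reached similar values. NoDox_Entinostat with Dox_DMSO (0.814 to 0.911) and NoDox_DMSO with Dox_Entinostat (0.108 to 0.243), which meet only in the interaction, passed too. Doxycycline in DMSO (0.085 to 0.64), doxycycline in entinostat (0.06 to 0.122) and entinostat with doxycycline (0.088 to 0.098) did not pass for every pair. In DMSO only the third pair, at 0.085, lay under the limit, beside 0.621 and 0.64.

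The alternatives tried were DESeq2 1.42.0, limma-voom (limma 3.58.1), scaling by RLE factors or by library size alone, keeping every gene or those above 1 CPM in 3 or more libraries, the replicate block, only the groups compared, experiment 1 counts minus 1, each library left out in turn, and the first Dox_DMSO and NoDox_Entinostat libraries left out together. Removal of a trend over exon length and GC content (natural splines of 4 df each, from genes above 2 log2 CPM) was added after seeing the data.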

Additional observations from a re-analysis of the deposited data

How the results depend on the processing

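Counts of the 29 genes called, by comparison, moved by more than 1.5 times under the following settings. Parentheses give the calls in the same direction over all genes tested under that setting, which moved too. In experiment 1 the 3 falls became 1 with no filter on low counts (760 of 25628 genes) and 6 with DESeq2 (1536 of 13811). They became 13 with the replicate block (3416 of 13811) and 5 with the length and GC trend removed (1346 of 13811). With 1 library left out they ranged from 0 to 3 (487 of 14148 to 941 of 13936). The 0 rises of experiment 1 became 1 with RLE factors (778 of 13811) or library size alone (768 of 13811). They also became 1 with the filter of 1 CPM (663 of 10889) or limma-voom (721 of 13811). They became 2 with DESeq2 (1138 of 13811) or the trend removed (1037 of 13811), and 6 with the block (3611 of 13811). With 1 library left out they ranged from 0 to 1 (197 of 14148 to 567 of 13936). For doxycycline in DMSO the 1 rise became 0 with no filter (554 of 26903). It became 6 when the first library of Dox_DMSO and of NoDox_Entinostat were left out (2697 of 15478). The 0 falls became 4 with the replicate block (1146 of 15051). They became 2 without those libraries (2149 of 15478) or with the trend removed (1125 of 15051). With 1 library left out, rises ran from 0 to 2 (325 of 15606 to 836 of 15614). Falls then ran from 0 to 2 (536 of 15616 to 991 of 15517). For doxycycline in entinostat the 4 falls became 10 with library size alone (3149 of 15051) and with no filter (3328 of 26903). They also became 10 with the replicate block (3424 of 15051). They became 8 with DESeq2 (2628 of 15051) and 15 without the 2 libraries (5529 of 15478). With 1 library left out they ranged from 0 to 11 (766 of 15471 to 4431 of 15517). The 0 rises became 1 without the 2 libraries (4040 of 15478). For entinostat without doxycycline the 13 falls became 6 with library size alone (1233 of 15051) and 20 without the 2 libraries (4286 of 15478). For entinostat with doxycycline the 2 rises became 4 with the filter of 1 CPM (3861 of 12218) or the replicate block (5843 of 15051). They also became 4 with the trend removed (5769 of 15051) or without the 2 libraries (6676 of 15478). With 1 library left out they ranged from 1 to 4 (4415 of 15608 to 6109 of 15614). For the interaction the 0 calls became 3 above and 15 below 0 without the 2 libraries (3326 and 4646 of 15478). With 1 library left out, 0 to 6 passed below 0 (3 of 15431 to 2133 of 15517). The cause of these moves was not tested. No called gene changed sign under any alternative run. In doxycycline in DMSO, doxycycline in entinostat and entinostat with doxycycline, not every same-numbered pair passed the limit of 0.1. Their block counts are therefore given here only, and the 4 blocked falls in DMSO are named with that comparison. This does not show that their libraries were unpaired. In experiment 1 and in entinostat without doxycycline the replicate block changed no other call than those given with their results, and for the interaction it left 0 calls above and 0 below 0.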
